A study of Homo sapiens with 8 samples.

Results

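The HOX cluster genes are genes whose symbol is HOXA, HOXB, HOXC or HOXD followed by a number, and 38 of the 39 found in the count table of 17309 genes are described. Membership followed from the symbol alone, and the set was chosen with earlier results of these data known. They comprised 10 HOXA genes on chromosome 7 (27100354 to 27200091), 10 HOXB genes on chromosome 17 (48528526 to 48728750), 9 HOXC genes on chromosome 12 (53938831 to 54056030) and 9 HOXD genes on chromosome 2 (176087487 to 176190907), in RefSeq coordinates of GRCh38.p14. Poly(A) RNA was sequenced from cultures of DLD-1 and of SW480, which are long-established lines from human colorectal cancer, as single-end reads, after infection with lentivirus carrying a control short hairpin RNA (shControl) or a hairpin against the RNA acetyltransferase NAT10 (shNAT10). Each of the 4 groups (SW480 shControl, SW480 shNAT10, DLD-1 shControl, DLD-1 shNAT10) had 2 libraries labelled as biological replicates of the same line, and the control cells carried lentivirus as well. The labels do not say which NAT10 hairpin the sequenced cells carried.

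HOX genes encode homeodomain transcription factors that give cells along the head-to-tail axis of the embryo their position. Within a cluster the genes lie in the order in which they act along the body, from low paralogue numbers, used at the front, to high numbers, used at the rear. Genes with the same number in different clusters are copies of a common ancestor and overlap in function. Their proteins bind DNA together with TALE homeodomain partners (PBX, MEIS and PKNOX), retinoic acid opens clusters from the front, and Polycomb and Trithorax complexes keep the resulting on or off state through cell division. Adult colon epithelium keeps expressing part of this code, and epithelial lines derived from it often do too.

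Library totals lay between 15147805 and 17271336 counts, and the coefficient of biological variation between replicates was 0.0585. Since the replicates are libraries of the same line, p-values measure the spread between libraries and not between independent tumours. NAT10 had 122 and 122 CPM (SW480 shControl), 23.6 and 27.9 (SW480 shNAT10), 121 and 120.5 (DLD-1 shControl) and 59.01 and 54.4 (DLD-1 shNAT10), where CPM is the count scaled to library size, in units of 1e6 counts, after TMM correction. It fell by 2.25 on the log2 scale in SW480 (SE 0.0869, adjusted p = 3.7e-09, edgeR) and by 1.09 in DLD-1 (SE 0.0812, adjusted p = 2.7e-05), so the targeted gene followed the labels in both lines. All 9 colon epithelium markers were detected, although KRT20 had at most 0.234 CPM in an SW480 library and LGALS4 at most 2.57 CPM in any library. The summed level of these 9 markers was 3169 to 3376 CPM in SW480 shControl, 3358 to 3928 in SW480 shNAT10, 7500 to 7795 in DLD-1 shControl and 7658 to 8094 in DLD-1 shNAT10. KRT8 (mean 1604 CPM in SW480 shControl, 3616 in DLD-1 shControl) and KRT18 (1185 and 2239) were the main contributors. With shControl 7 of the 9 were lower in SW480, while VIL1 (log2 difference 1.42) and LGALS4 (1.05) were higher. Over all tested genes 35.6% were called lower and 38.1% higher. KRT20 passed the filter on low counts through DLD-1 libraries only, so that it had to be lower in SW480. Of 9 markers of other cell types, 8 were in the table. Their sum was 35.5 to 36.3 CPM in SW480 shControl, 37.1 to 41.5 in SW480 shNAT10, 21.9 to 22.7 in DLD-1 shControl and 24.6 to 29.5 in DLD-1 shNAT10, with CD68 as the main contributor and CD3E, PECAM1 and COL1A2 at 0.18 CPM or less. The libraries came from cultures of single cell lines, so these values do not show that other cell types were present. Their relation to the HOX levels was not tested.

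Stretches of HOX promoters with the sequence CNATAAA, a form bound by caudal and posterior HOX homeodomains, are shown here because CDX2, a caudal-type factor and a known activator of HOX genes, differed between the lines as described further on. A RefSeq promoter (300 bases around the start, GRCh38.p14) was held for 20 of the 38 members, and on either strand the letters occurred in 7 of their 27 promoters, of 6 members (HOXA3, HOXA9, HOXA10, HOXC4, HOXC5 and HOXD8). The same letters occurred in 9.73% of all 35116 promoters. The TATA sequence TATAAA, which can overlap CNATAAA, and TGATNNAT, bound by HOX proteins with PBX, were searched in the same way and occurred in 5 and 3 of the 27 promoters, against 11.5% and 7.40% of all promoters. Each stretch is 30 bases, written 5′ to 3′ on the strand of the gene, with the match in capitals (the reverse complement where it lies on the other strand). HOXA3 (stretches not shown), HOXA9 and HOXA10 were lower in SW480, HOXC4, HOXC5 and HOXD8 higher, and HOXC4 and HOXC5 share their start. The matches shown for HOXA9 and HOXA10 also hold the letters TATAAA. For 12 of the 27 promoters the 30 bases from the start were found in a GENCODE 29 transcript of the gene.
HOXA9 (chr7:27165670-27165699, minus strand): tatggcttttgCTATAAAaattatgactgc
HOXA10 (chr7:27180066-27180095, minus strand): ggaatgcgccgCTATAAAcccggctggggt
HOXC4 and HOXC5 (chr12:54016846-54016875, plus strand): aacgtgaacttTTTATTGtggtttgtccgt
HOXD8 (chr2:176129602-176129631, plus strand): ggcagtgcgtcTTTATGGgccccctttaag

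The match began 151 bases before the start in HOXA9 and 31 bases before it in HOXC4 and HOXC5. These letters therefore stood at members that were higher and at members that were lower in SW480. A match of letters says nothing of whether a factor was bound there.

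In both lines the HOXB and HOXA clusters held most HOX transcript, and the HOXC and HOXD clusters were far lower in DLD-1 than in SW480. Levels of different genes were compared per length, as FPKM (fragments scaled to transcript length and library size) summed over a gene's transcripts. In the shControl libraries the 38 genes together reached 304.8 FPKM in SW480 and 595.5 FPKM in DLD-1 (means, n = 2). HOXB held 63.8% of this sum in SW480 and 62.2% in DLD-1, and HOXA 22.6% and 36.98%. HOXC held 8.40% in SW480 and 0.411% in DLD-1, and HOXD 5.11% and 0.420%. In bulk RNA, fewer cells with a transcript and less transcript per cell cannot be told apart.

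HOXB9 was the most abundant member in every group, at 65.7 FPKM in SW480 shControl and 127.6 FPKM in DLD-1 shControl. Below it came HOXB7 (43.8 FPKM), HOXB6 (28.5 FPKM), HOXA9 (20.5 FPKM) and HOXA7 (18.2 FPKM) in SW480 shControl, while HOXB6 (86.1 FPKM), HOXA9 (66.4 FPKM), HOXB3 (55.2 FPKM) and HOXB7 (52.6 FPKM) followed in DLD-1 shControl. In DLD-1 shControl 4.26% of all genes had a higher FPKM than HOXB9, and in SW480 shControl 8.96%. In both lines all 9 HOXB genes other than HOXB1 stood at 1 FPKM or more in each shControl library. For HOXA the number was 8 of 10 in SW480, without HOXA6 and HOXA13, and 10 of 10 in DLD-1. For HOXC it was 6 of 9 in SW480 and 1 of 9 in DLD-1, the latter being HOXC6, and for HOXD 3 of 9 and 1 of 9, the latter being HOXD9. The levels by library are drawn in the panels for the 4 clusters.

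Gene totals were then compared between SW480 and DLD-1 by edgeR's quasi-likelihood test, with p adjusted over all 13619 genes that passed a filter on low counts. Of the 38 members, 31 passed. The cutoff was reached in libraries of both lines by 25 of them, and in SW480 libraries alone by HOXC4, HOXC5, HOXC8, HOXC9, HOXC13 and HOXD13, which had to differ in order to be tested. With shControl, 31 of 31 tested members passed an adjusted p of 0.05, 15 higher and 16 lower in SW480, where 73.8% of all tested genes did (38.1% higher, 35.6% lower). The libraries of the lines did not overlap in 31 of 31 members with shControl and 30 of 31 with shNAT10, as held for 87.7% and 85.1% of all tested genes. A difference between these lines was thus common among all genes. Among the 25 members over the cutoff in both lines, 9 were higher and 16 lower in SW480, the median absolute log2 difference was 1.70 (0.54 over all tested genes), and 17 differed by more than 1 on the log2 scale (29.5% of all tested genes did).

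HOXA genes were mostly lower in SW480, with 8 of 10 lower and 2 higher. HOXA13, which patterns the hindgut, the genital tract and the tips of the limbs, had 2.99 and 2.81 CPM (SW480 shControl), 2.18 and 2.81 (SW480 shNAT10), 119.6 and 132 (DLD-1 shControl) and 122 and 134 (DLD-1 shNAT10). It was 43.3-fold lower in SW480 (log2 difference -5.44, SE 0.121, adjusted p = 2.8e-14), the largest fold among members with counts in both lines. Every SW480 library lay far below every DLD-1 library.

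Its neighbours with posterior roles showed the same direction with smaller folds. HOXA11, a gene of uterus and limb development, had 18.6 and 18.7 CPM (SW480 shControl), 15.7 and 16.1 (SW480 shNAT10), 47.6 and 48.4 (DLD-1 shControl) and 52.00 and 51.8 (DLD-1 shNAT10) (log2 difference -1.36 with shControl, adjusted p = 8.4e-10). HOXA10, known from the uterus and from leukaemia, had 20.8 and 22.01 CPM (SW480 shControl), 21.8 and 19.1 (SW480 shNAT10), 99.5 and 102 (DLD-1 shControl) and 95.1 and 101 (DLD-1 shNAT10) (log2 difference -2.23, adjusted p = 7.9e-12). HOXA9, which acts in blood progenitors, had 36.2 and 36.6 CPM (SW480 shControl), 36.3 and 32.6 (SW480 shNAT10), 116 and 122 (DLD-1 shControl) and 117 and 116 (DLD-1 shNAT10) (log2 difference -1.71, adjusted p = 5.0e-11). In each of these genes the 4 SW480 libraries lay together and below all 4 DLD-1 libraries.

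The central HOXA genes did not move as a block. HOXA6 had 0.703 and 0.703 CPM (SW480 shControl), 0.706 and 0.702 (SW480 shNAT10), 8.40 and 12.3 (DLD-1 shControl) and 10.4 and 10.1 (DLD-1 shNAT10), a 14.6-fold lower level in SW480 with shControl (log2 difference -3.87, adjusted p = 5.2e-09). HOXA5, needed for lung and trachea development, had 6.45 and 6.73 CPM (SW480 shControl), 4.12 and 4.74 (SW480 shNAT10), 36.7 and 36.5 (DLD-1 shControl) and 38.9 and 37.2 (DLD-1 shNAT10) (log2 difference -2.47, adjusted p = 2.7e-11). HOXA7, which lies between HOXA6 and HOXA9, went the other way, with 29.8 and 33.2 CPM (SW480 shControl), 26.9 and 22.6 (SW480 shNAT10), 20.5 and 22.1 (DLD-1 shControl) and 19.4 and 20.4 (DLD-1 shNAT10) (log2 difference 0.57, adjusted p = 2.0e-04). The SW480 libraries were all below the DLD-1 libraries for HOXA5 and HOXA6 and all above them for HOXA7.

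HOXA4 was slightly higher in SW480, with 5.57 and 4.16 CPM (SW480 shControl), 4.29 and 5.79 (SW480 shNAT10), 2.88 and 3.31 (DLD-1 shControl) and 3.30 and 1.97 (DLD-1 shNAT10) (log2 difference 0.65, SE 0.245, adjusted p = 0.027). Among the anterior genes, HOXA3, which acts in the pharyngeal arches and thymus, had 6.62 and 6.03 CPM (SW480 shControl), 5.70 and 5.67 (SW480 shNAT10), 27.1 and 27.1 (DLD-1 shControl) and 28.8 and 26.6 (DLD-1 shNAT10) (log2 difference -2.10, adjusted p = 3.2e-10). HOXA2, which sets the identity of the second arch, had 2.05 and 1.87 CPM (SW480 shControl), 1.82 and 1.64 (SW480 shNAT10), 3.46 and 2.43 (DLD-1 shControl) and 2.71 and 3.08 (DLD-1 shNAT10) (log2 difference -0.59, SE 0.246, adjusted p = 0.044). For HOXA3 the lines were far apart, while for HOXA2 and HOXA4 the groups were separate but close. The call of HOXA2 was lost without either SW480 shControl library, with a log2 difference of -0.65 without replicate 1 (adjusted p = 0.092) and -0.52 without replicate 2 (adjusted p = 0.16), without DLD-1 shControl replicate 1 (-0.31, adjusted p = 0.37), and without DLD-1 shNAT10 replicate 1 or 2 (both -0.59, adjusted p = 0.052 and 0.053). That of HOXA4 was lost without SW480 shControl replicate 1 (0.42, adjusted p = 0.23) and without DLD-1 shControl replicate 1 (0.55, adjusted p = 0.13) or 2 (0.75, adjusted p = 0.051). In DESeq2 the adjusted p was 0.18 for HOXA2 and 0.066 for HOXA4.

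HOXB genes differed by at most 2.17 on the log2 scale with shControl, with 8 of 9 tested members lower and 1 higher in SW480. HOXB3 had 62.7 and 67.2 CPM (SW480 shControl), 54.6 and 56.6 (SW480 shNAT10), 193 and 228 (DLD-1 shControl) and 210.4 and 217 (DLD-1 shNAT10) (log2 difference -1.70, SE 0.0820, adjusted p = 1.2e-10). HOXB6 had 46.2 and 43.5 CPM (SW480 shControl), 50.8 and 48.1 (SW480 shNAT10), 135 and 137 (DLD-1 shControl) and 134 and 129 (DLD-1 shNAT10) (log2 difference -1.60, SE 0.0723, adjusted p = 5.3e-11). These 2 genes were the lowest of the cluster in SW480 relative to DLD-1, with no overlap between lines. HOXB8 had 17.9 and 17.4 CPM (SW480 shControl), 17.9 and 18.9 (SW480 shNAT10), 39.6 and 38.8 (DLD-1 shControl) and 38.8 and 37.8 (DLD-1 shNAT10) (log2 difference -1.15, adjusted p = 1.2e-08). HOXB9, the most abundant member, had 147 and 155 CPM (SW480 shControl), 157 and 156 (SW480 shNAT10), 314 and 279 (DLD-1 shControl) and 288 and 278 (DLD-1 shNAT10) (log2 difference -0.97, adjusted p = 1.0e-08). HOXB13, which is expressed in prostate and the distal gut, had 9.44 and 7.73 CPM (SW480 shControl), 8.82 and 8.66 (SW480 shNAT10), 14.4 and 14.4 (DLD-1 shControl) and 13.7 and 13.7 (DLD-1 shNAT10) (log2 difference -0.74, adjusted p = 6.0e-05). All 3 were lower in each SW480 library than in any DLD-1 library.

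HOXB5 had 21.04 and 18.7 CPM (SW480 shControl), 21.3 and 18.6 (SW480 shNAT10), 31.1 and 28.6 (DLD-1 shControl) and 31.2 and 25.8 (DLD-1 shNAT10) (log2 difference -0.59, adjusted p = 2.9e-04). HOXB4, a gene known from the expansion of blood stem cells, had 8.32 and 8.55 CPM (SW480 shControl), 7.23 and 8.42 (SW480 shNAT10), 11.2 and 11.96 (DLD-1 shControl) and 10.1 and 12.1 (DLD-1 shNAT10) (log2 difference -0.45, adjusted p = 0.0067). HOXB7 had 50.4 and 44.1 CPM (SW480 shControl), 54.7 and 49.7 (SW480 shNAT10), 60.2 and 55.2 (DLD-1 shControl) and 53.9 and 54.2 (DLD-1 shNAT10) (log2 difference -0.29, SE 0.0859, adjusted p = 0.0072). HOXB7 was the closest to equal, and its lines overlapped with shNAT10. Its call was lost without SW480 shControl replicate 2 (-0.20, adjusted p = 0.11) or DLD-1 shControl replicate 1 (-0.23, adjusted p = 0.081).

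HOXB2, a hindbrain gene at the anterior end of the cluster, was the exception, with 10.4 and 9.78 CPM (SW480 shControl), 10.5 and 10.8 (SW480 shNAT10), 2.17 and 2.31 (DLD-1 shControl) and 1.83 and 1.71 (DLD-1 shNAT10). It was 4.50-fold higher in SW480 (log2 difference 2.17, SE 0.158, adjusted p = 1.2e-08), and every SW480 library exceeded every DLD-1 library. HOXB1 had 1 count in SW480 shControl replicate 1 and 0 in the other 7 libraries, and was not tested.

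HOXC genes with libraries of both lines over the cutoff were higher in SW480 in 3 of 3 cases, and the other 5 tested HOXC genes could enter the test only as higher there. HOXC10, a gene of the lumbar region, had 14.5 and 13.00 CPM (SW480 shControl), 13.3 and 15.1 (SW480 shNAT10), 0.940 and 0.592 (DLD-1 shControl) and 0.707 and 0.788 (DLD-1 shNAT10) (log2 difference 4.15, SE 0.207, adjusted p = 1.7e-10), a 17.8-fold difference with shControl. HOXC6, of the thoracic region, had 12.1 and 9.31 CPM (SW480 shControl), 10.3 and 10.8 (SW480 shNAT10), 1.70 and 2.01 (DLD-1 shControl) and 1.59 and 1.90 (DLD-1 shNAT10) (log2 difference 2.52, SE 0.193, adjusted p = 2.1e-08). HOXC11 had 2.34 and 1.52 CPM (SW480 shControl), 2.59 and 1.81 (SW480 shNAT10), 0.998 and 0.474 (DLD-1 shControl) and 0.471 and 0.722 (DLD-1 shNAT10) (log2 difference 1.38, SE 0.393, adjusted p = 0.0055). All SW480 libraries lay above all DLD-1 libraries in these 3 genes, narrowly so for HOXC11. The call of HOXC11 was lost without SW480 shControl replicate 1 (1.04, adjusted p = 0.078) or DLD-1 shControl replicate 2 (0.95, adjusted p = 0.074).

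The remaining tested HOXC genes were near the detection limit in DLD-1 and are given in counts. HOXC9 had 50 and 74 counts (SW480 shControl), 47 and 75 (SW480 shNAT10), 4 and 2 (DLD-1 shControl) and 1 and 4 (DLD-1 shNAT10) (log2 difference 4.30, SE 0.495). HOXC8 had 85 and 97 counts (SW480 shControl), 77 and 79 (SW480 shNAT10), 6 and 3 (DLD-1 shControl) and 5 and 4 (DLD-1 shNAT10) (log2 difference 4.29, SE 0.313). HOXC4 had 35 and 23 counts (SW480 shControl), 45 and 35 (SW480 shNAT10), 4 and 9 (DLD-1 shControl) and 4 and 5 (DLD-1 shNAT10), rounded from estimated counts (log2 difference 2.13, SE 0.431). None of the 3 reached 10 counts in a DLD-1 library, and none fell under 20 in an SW480 library.

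HOXC13, known for its role in hair and nails, had 64 and 59 counts (SW480 shControl), 51 and 50 (SW480 shNAT10), 0 and 0 (DLD-1 shControl) and 0 and 0 (DLD-1 shNAT10). It was at least 40.7-fold higher in SW480 with shControl and at least 31.8-fold higher with shNAT10, taking 3 counts over the 2 DLD-1 libraries as the most that a count of 0 allows. HOXC5 had 26 and 25 counts (SW480 shControl), 25 and 26 (SW480 shNAT10), 0 and 0 (DLD-1 shControl) and 4 and 1 (DLD-1 shNAT10), at least 16.9-fold higher in SW480 with shControl. HOXC13 was therefore undetected in DLD-1 at this depth, and HOXC5 gave at most 4 counts there. These limits cover counting error only. HOXC12 had 2, 3, 2 and 0 counts in the SW480 libraries and 0 in the DLD-1 libraries, and was not tested.

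HOXD genes with libraries of both lines over the cutoff were higher in SW480 in 3 of 3 cases. HOXD8 had 10.9 and 11.9 CPM (SW480 shControl), 9.82 and 10.4 (SW480 shNAT10), 0.646 and 0.592 (DLD-1 shControl) and 0.471 and 0.0657 (DLD-1 shNAT10) (log2 difference 4.19, SE 0.256, adjusted p = 1.7e-09), 18.2-fold higher with shControl. HOXD9 had 6.97 and 7.08 CPM (SW480 shControl), 7.88 and 6.84 (SW480 shNAT10), 1.70 and 2.13 (DLD-1 shControl) and 2.36 and 1.71 (DLD-1 shNAT10) (log2 difference 1.87, SE 0.201, adjusted p = 8.9e-07). HOXD4 had 6.62 and 5.33 CPM (SW480 shControl), 4.17 and 4.97 (SW480 shNAT10), 1.18 and 1.24 (DLD-1 shControl) and 0.942 and 0.656 (DLD-1 shNAT10) (log2 difference 2.30, SE 0.235, adjusted p = 5.4e-07). The lines were separate in all 3 genes, with every SW480 library the higher. HOXD13, the limb and hindgut paralogue of HOXA13, had 24 and 31 counts (SW480 shControl), 29 and 20 (SW480 shNAT10), 5 and 3 (DLD-1 shControl) and 3 and 8 (DLD-1 shNAT10) (log2 difference 2.73). It was tested through its SW480 libraries alone, so that its direction is a description, and it was low in both lines, with all SW480 libraries above all DLD-1 libraries, the reverse of HOXA13.

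Another 5 HOXD genes did not pass the filter. HOXD1 had 9 and 11 counts (SW480 shControl), 9 and 7 (SW480 shNAT10), 3 and 0 (DLD-1 shControl) and 4 and 2 (DLD-1 shNAT10), and HOXD3 had 9 and 7 counts (SW480 shControl), 3 and 5 (SW480 shNAT10), 0 and 0 (DLD-1 shControl) and 0 and 1 (DLD-1 shNAT10). In shControl libraries the ratio of HOXD1 was 6.62 in favour of SW480 (exact 95% counting interval 1.96 to 34.8), and HOXD3 was at least 5.30-fold higher. HOXD10 had 0 and 3 counts (SW480 shControl), 2 and 1 (SW480 shNAT10), 5 and 3 (DLD-1 shControl) and 10 and 4 (DLD-1 shNAT10). HOXD11 had 1 and 4 counts (SW480 shControl), 3 and 6 (SW480 shNAT10), 4 and 4 (DLD-1 shControl) and 4 and 4 (DLD-1 shNAT10), and HOXD12 had at most 4 counts in any library. For these last 3 genes no excess in SW480 was visible, and HOXD10 and HOXD12 had their highest counts in DLD-1 (shNAT10 replicate 1).

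**Figure D1:**
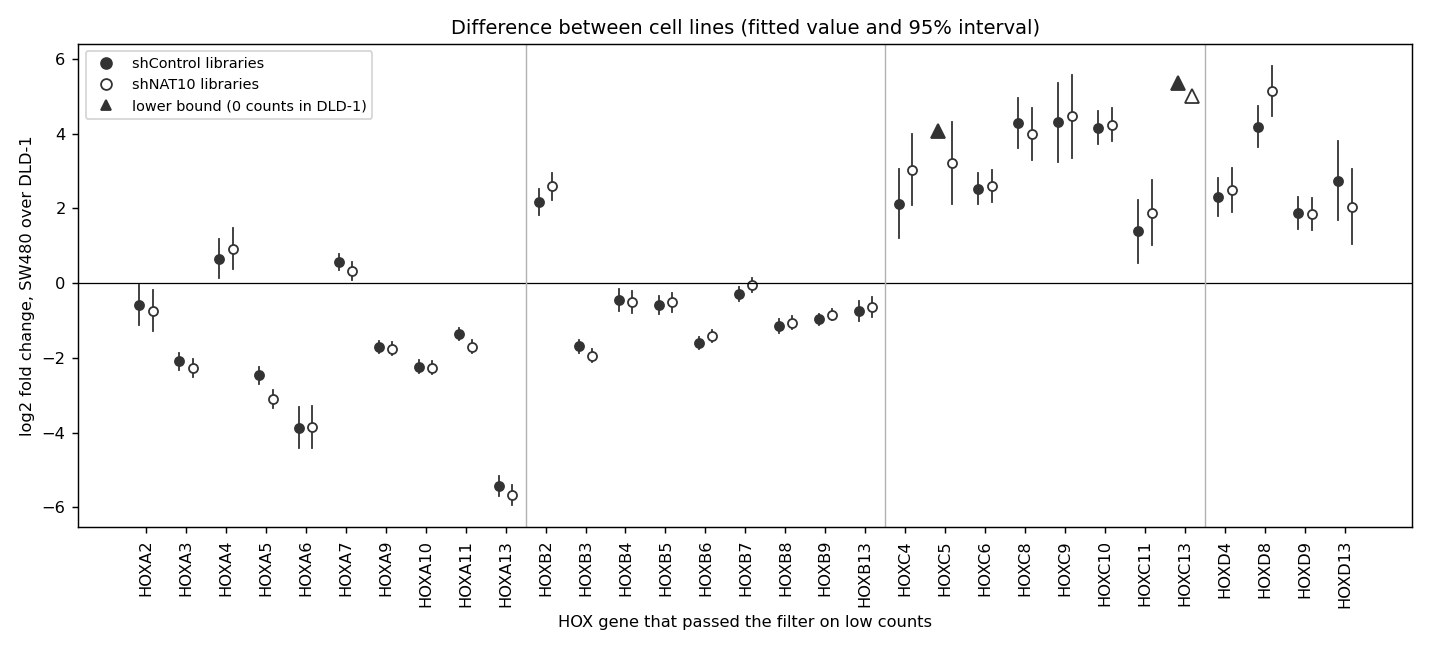
Log2 fold change of SW480 over DLD-1 (y axis) for the 31 tested HOX genes in cluster order (x axis), in shControl (filled) and shNAT10 (open) libraries, where circles with bars are fitted values with 95% intervals, and triangles are lower bounds where the DLD-1 group had 0 counts. HOXA13 lies lowest at -5.44 and -5.68, all HOXC and HOXD genes lie above 0, and the filled and open symbols stay on the same side of 0 for every gene.

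The line difference was also measured in the shNAT10 libraries, which the first comparison does not use for its means. There 30 of 31 tested members passed, 15 higher and 15 lower in SW480, where 74.5% of all tested genes did (38.2% higher, 36.3% lower). Among the 25 members over the cutoff in both lines, 24 passed with shNAT10, 9 higher and 15 lower. The sign was the same in both arms for 25 of these 25, as it was for 91.6% of all tested genes. HOXB7 (log2 difference -0.05, adjusted p = 0.60) did not pass, and it turned to 0.016 without SW480 shNAT10 replicate 2. HOXA7 (0.32) was lost without SW480 shNAT10 replicate 1 (0.19, adjusted p = 0.14) and without DLD-1 shNAT10 replicate 1 (0.28, adjusted p = 0.095). HOXA2 (-0.74) was lost without SW480 shNAT10 replicate 2 (-0.66, adjusted p = 0.075). Without DLD-1 shNAT10 replicate 2, HOXA2 (-0.65, adjusted p = 0.089), HOXA4 (0.61, adjusted p = 0.068) and HOXB4 (-0.36, adjusted p = 0.056) were lost.

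The tested genes flanking each cluster, 3 on either side and looked up after the HOX values were known, were compared as well. EVX1, a homeobox gene whose start lies 42711 bases beyond the HOXA13 end of the cluster, had a mean of 0.322 CPM in SW480 shControl and 15.1 CPM in DLD-1 shControl (log2 difference -5.52, SE 0.310, adjusted p = 6.5e-10, edgeR). Its mean was 0.322 CPM in both SW480 groups, under the cutoff of the filter. EVX1 thus passed through its DLD-1 libraries and had to be lower in SW480. That its size was close to that of HOXA13 is therefore a description. On the far side of EVX1, HIBADH differed by -0.33 and TAX1BP1 by -1.23, and at the anterior end SKAP2 differed by 0.57 (all 3 with an adjusted p under 0.05). At the HOXB1 end of HOXB, SKAP1 was higher in SW480 (1.49, adjusted p = 5.4e-09), as was CALCOCO1 beside HOXC13 (1.58, adjusted p = 1.0e-09). At the other end of HOXC, SMUG1 differed by 0.05 (adjusted p = 0.67). Around HOXD, LNPK differed by -0.01 (adjusted p = 0.94) and MTX2 by 0.74 (adjusted p = 1.8e-06). Both differed less than HOXD4, HOXD8 and HOXD9, the HOXD genes over the cutoff in both lines. HOXD10, HOXD11 and HOXD12 were not tested.

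**Figure D2:**
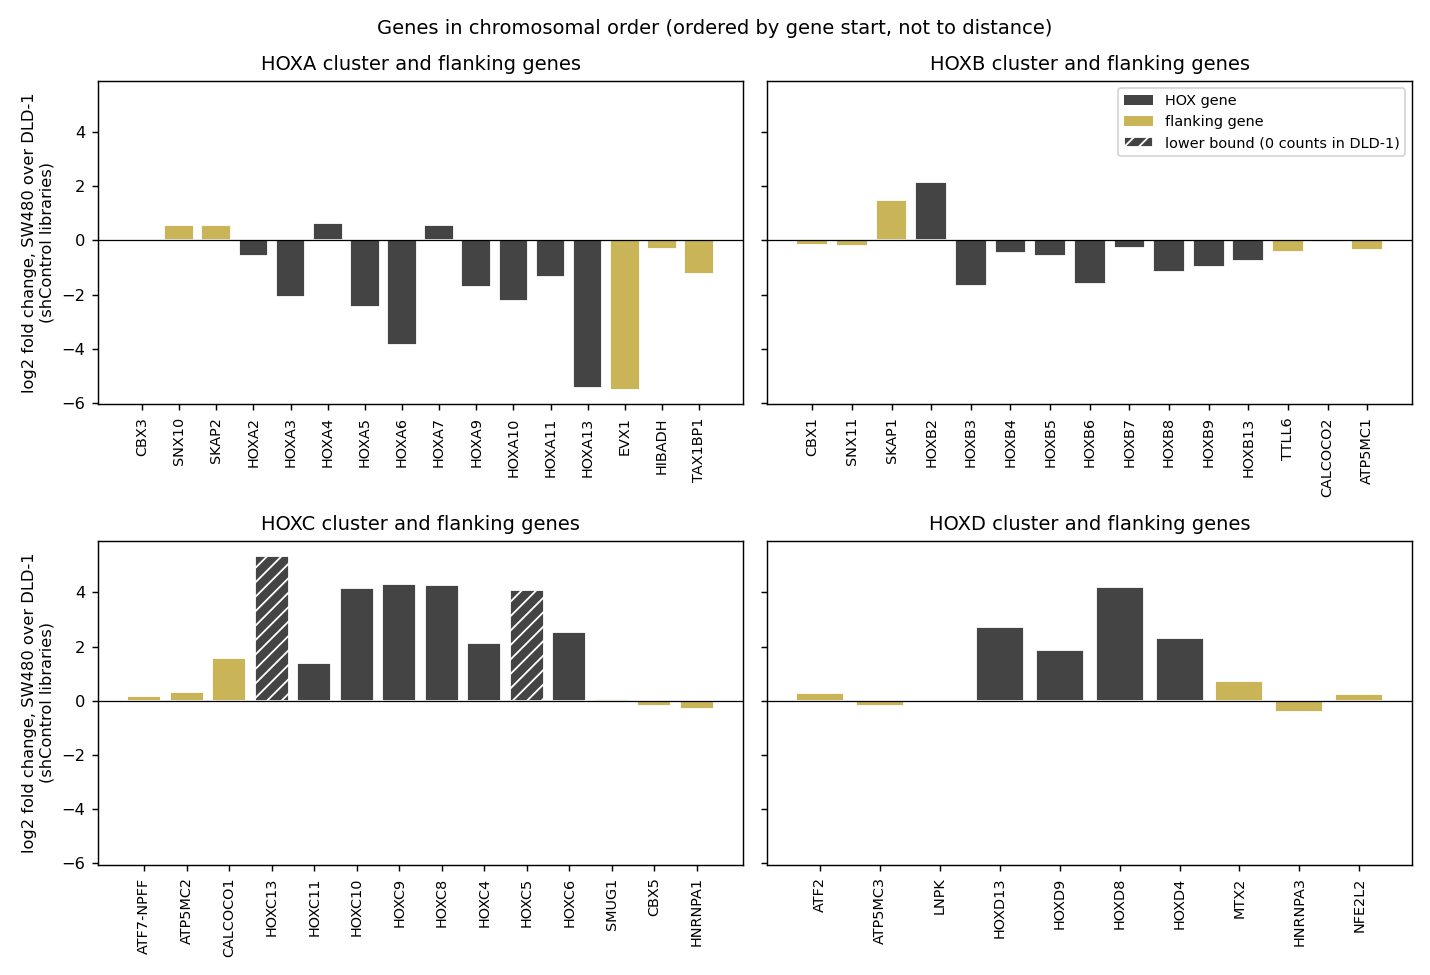
Log2 fold change of SW480 over DLD-1 in shControl libraries (y axis) for the tested HOX genes (dark bars, hatched where the value is a lower bound) and the nearest 3 tested genes on each side (yellow bars), ordered by gene start along the chromosome. HOXA13 and its neighbour EVX1, which passed the filter through its DLD-1 libraries, are both near -5.5. The nearest tested genes around the HOXD cluster, up to 1039396 bases away, stay between -0.41 and 0.74.

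Counts of some members cannot be assigned with certainty. HOXC4, HOXC5 and HOXC6 share an upstream start, HOXA3 spans HOXA4, HOXA5 and HOXA6 on the chromosome, HOXB3 spans HOXB4, and HOXD3 overlaps HOXD4. Exons of 18 members lie under exons of an antisense long noncoding RNA in GENCODE 29, such as HOTTIP at HOXA13 and HOXA-AS3 at HOXA6 and HOXA7. The library protocol is not stated to mark strand, and without strand the reads of such pairs cannot be told apart.

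Factors that work with or upstream of HOX genes differed between the shControl groups about as often as other genes, with 53 of 67 tested genes of 6 lists called (79.1%, against 73.8% of all tested genes). CDX2, the intestinal caudal factor, had 43.5 and 37.8 CPM (SW480 shControl), 48.6 and 44.8 (SW480 shNAT10), 154 and 159 (DLD-1 shControl) and 178 and 163 (DLD-1 shNAT10) (log2 difference -1.95, SE 0.0842, adjusted p = 3.2e-11). GATA6, a factor of the gut endoderm, differed by -1.97 (adjusted p = 2.4e-11) and PDX1, the ParaHox gene of the pancreas and duodenum, by -1.24 (adjusted p = 5.6e-07). All 3 were lower in SW480, as were most HOXA and HOXB genes. Of the 5 tested genes in the list of ParaHox and gut position genes, 3 were lower and 2 higher (median log2 difference -1.24, against 0.01 over all tested genes). The 2 higher genes, GSX1 and GATA4, passed the filter through SW480 libraries only, so that they had to be higher there. CDX1 and PRAC1, also on that list, were not analysed here.

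Of the 8 tested TALE cofactors, 6 were higher in SW480 and 2 lower, and 4 of the 8 passed the filter through libraries of 1 line only, so that they had to differ. PBX3 had 257 and 291 counts (SW480 shControl), 232 and 220 (SW480 shNAT10), 8 and 5 (DLD-1 shControl) and 3 and 6 (DLD-1 shNAT10), and MEIS3 had 342 and 322 counts (SW480 shControl), 354 and 294 (SW480 shNAT10), 5 and 4 (DLD-1 shControl) and 4 and 0 (DLD-1 shNAT10). Both were among these 4 and had at most 8 counts in any DLD-1 library. PKNOX1 was lower in SW480 (-1.46, adjusted p = 2.0e-10).

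Of the 9 tested genes of retinoic acid transport, synthesis and response, 5 were higher and 3 lower in SW480 (median log2 difference 1.26). Over all tested genes 38.1% were called higher and 35.6% lower. The 3 lower genes were RARG (log2 difference -1.175), CYP26B1 (-0.89) and RXRB (-0.77). STRA6, the retinol uptake receptor, had 109 and 100.3 CPM (SW480 shControl), 101 and 87.97 (SW480 shNAT10), 0 and 0 (DLD-1 shControl) and 0 and 0.0657 (DLD-1 shNAT10). CRABP2, which delivers retinoic acid to the nucleus, had 159 and 157 CPM (SW480 shControl), 183 and 160.3 (SW480 shNAT10), 8.05 and 7.93 (DLD-1 shControl) and 7.71 and 8.53 (DLD-1 shNAT10) (log2 difference 4.30, adjusted p = 3.4e-14). ALDH1A3, an enzyme that makes retinoic acid, had 102 and 97.4 CPM (SW480 shControl), 90.97 and 98.5 (SW480 shNAT10), 22.4 and 23.1 (DLD-1 shControl) and 22.4 and 22.4 (DLD-1 shNAT10) (log2 difference 2.13, adjusted p = 6.3e-12). STRA6, CRABP2 and ALDH1A3 were higher in each SW480 library than in any DLD-1 library, and STRA6 was at or near 0 in DLD-1. STRA6 passed the filter through SW480 libraries only, so that it had to be higher there.

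Chromatin factors were called in shares of 69.6% (Polycomb) and 60% (Trithorax and COMPASS), against 73.8% of all tested genes. Of 23 Polycomb genes 7 were higher and 9 lower in SW480, led by CBX2 (-1.30, adjusted p = 3.0e-08), PHF1 (0.72, adjusted p = 1.9e-06) and EZH2, the histone methyltransferase (0.62, adjusted p = 2.0e-06). Of 15 Trithorax and COMPASS genes 3 were higher and 6 lower, led by MEN1 (-0.82, adjusted p = 1.6e-07), MLLT3 (-0.77, adjusted p = 2.8e-07) and the demethylase KDM6B (0.87, adjusted p = 1.1e-06). Of 7 cluster boundary factors 3 were higher and 4 lower (100%), with STAG1 at 0.46 (adjusted p = 7.1e-05), CTCF at -0.40 (adjusted p = 9.5e-05) and RAD21 at -0.25 (adjusted p = 0.0041). The median log2 differences of these 3 lists were -0.05, -0.15 and -0.22. Whether any of these genes had a part in the HOX levels was not tested.

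In the fit of the 4 groups, NAT10 knockdown moved no HOX gene past the adjusted threshold in either line. In SW480, 0 of 31 tested members passed in edgeR, where 1.68% of all tested genes did. DESeq2 called 0 as well, giving no adjusted p for HOXA5 and HOXA7. At an unadjusted p under 0.05 there were 4 members, against 19.3% of all genes. In DLD-1, 0 members passed in edgeR and in DESeq2, where 0.0147% of all genes did in edgeR, and 1 had an unadjusted p under 0.05, against 5.96%. The mean effect over both lines gave 0 members (1.02% of all genes) and the difference between the effects 0 (0.00734%), with 5 and 4 members at an unadjusted p under 0.05, against 14.5% and 9.38% of all genes. Calls over the whole table hung on single libraries. In SW480 all tested genes gave 229 calls, and leaving out a library gave between 18 (SW480 shControl replicate 2) and 2162 (SW480 shNAT10 replicate 2). With the replicate number as a block, edgeR called HOXA5, HOXA7 and HOXB3 lower in SW480, and HOXA7 lower for the mean over both lines. Calls over all genes in SW480 then rose to 1654. The 2 SW480 shNAT10 libraries differed most from each other, with a mean chi-square per gene of 9.77, against 3.32 to 4.59 in the other groups. The median log2 change of the members was -0.02 in SW480 and -0.04 in DLD-1, and the 95% interval of a member reached a median of 0.30 and 0.28 to either side.

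HOXA5 came closest, whose 110 and 115 counts with shControl in SW480 stood above the 70 and 81 counts with shNAT10. The groups of 15 of 31 members did not overlap in SW480, where this held for 47.9% of all tested genes. HOXA5 had a fitted log2 change of -0.57 (95% interval -0.87 to -0.27, adjusted p = 0.055, edgeR). Without SW480 shNAT10 replicate 2 the change was -0.68 and passed (adjusted p = 0.018), and over the alternatives that gave an adjusted p it ran from 0.013 to 0.41. In DLD-1, HOXA5 had 625 and 617 counts with shControl and 661 and 567 with shNAT10 (log2 change 0.06, 95% interval -0.13 to 0.24). The difference between the lines was -0.63 (adjusted p = 0.44).

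Another 3 members had an unadjusted p under 0.05 in SW480, all with a lower level in shNAT10. HOXA7 had a log2 change of -0.35 (95% interval -0.57 to -0.13, adjusted p = 0.099), HOXA11 one of -0.23 (95% interval -0.42 to -0.05, adjusted p = 0.17) and HOXB3 one of -0.22 (95% interval -0.41 to -0.04, adjusted p = 0.18). HOXA7 had 29.8 and 33.2 CPM with shControl and 26.9 and 22.6 CPM with shNAT10 in SW480, without overlap. By sign alone, with no member past the threshold, 8 of 10 HOXA genes were lower with shNAT10 in SW480 and 7 of 9 HOXB genes higher (52.2% and 47.8% of all tested genes), from -0.22 (HOXB3) to 0.14 (HOXB7) in HOXB, the lowest adjusted p in that cluster being 0.18. In DLD-1, 6 of 10 HOXA and 8 of 9 HOXB genes were lower (49% of all tested genes), and they lay between -0.34 (HOXB2) and 0.11 (HOXA11).

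HOXC and HOXD genes could be judged less well in DLD-1 because of their low counts there. HOXC5, with 0 and 0 counts in DLD-1 shControl and 4 and 1 in DLD-1 shNAT10, was the member with an unadjusted p under 0.05 (adjusted p = 0.76, edgeR). HOXD8 had 11 and 10 counts in DLD-1 shControl and 8 and 1 in DLD-1 shNAT10 (log2 change -1.13, 95% interval -2.35 to 0.09). In SW480, where HOXD8 had 167 to 203 counts, its log2 change was -0.17 (95% interval -0.50 to 0.16). HOXC10 changed by 0.05 there (95% interval -0.22 to 0.31).

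**Figure D3:**
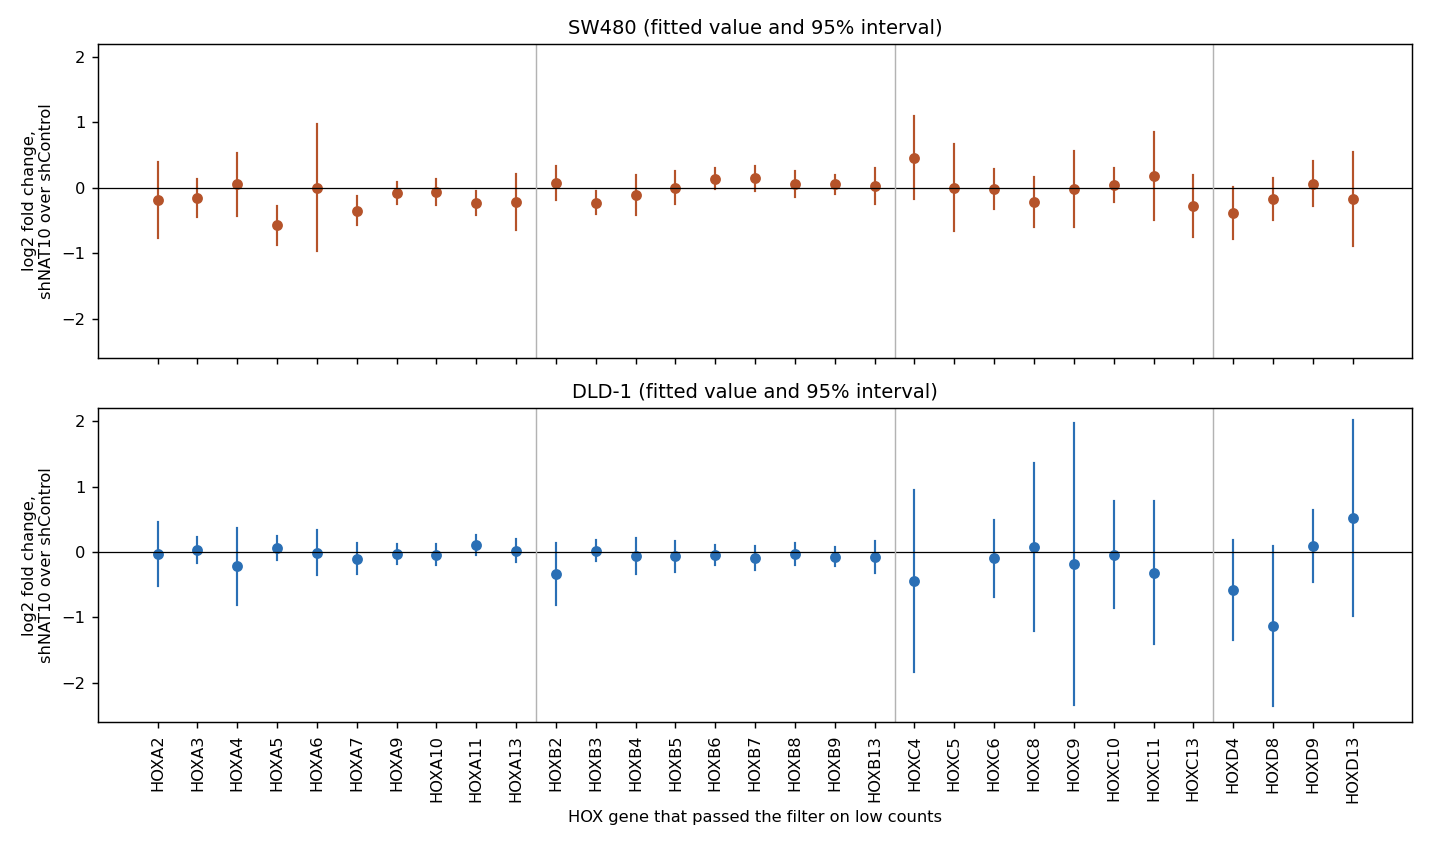
Log2 fold change of shNAT10 over shControl (y axis) with its 95% interval for each tested HOX gene (x axis) in SW480 (upper panel) and DLD-1 (lower panel). HOXC5 and HOXC13 are left out of the lower panel because DLD-1 shControl had 0 counts. Fitted values run from -0.57 (HOXA5) to 0.46 (HOXC4) in SW480, and the intervals of HOXC and HOXD genes are wide in DLD-1.

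With the limits used in the study (fold change above 1.2 or below 0.83 and unadjusted p under 0.05), 2 members were lower in SW480 (HOXA5 and HOXA7), where 4.98% of all tested genes were. In DLD-1 these limits took 1 higher member (HOXC5), against 1.34% of all tested genes. The mean effect gave 1 higher (HOXC5) and 2 lower (HOXD4 and HOXD8), against 1.3% and 1.82%, and the difference 3 lower in SW480 relative to DLD-1 (HOXA5, HOXA11 and HOXC5), against 4.05%. For HOXC5 all of these rest on 0 and 0 against 4 and 1 counts in DLD-1. In SW480 it had 26 and 25 counts with shControl and 25 and 26 with shNAT10. HOXD8 was also near the floor in DLD-1, with 8 and 1 counts with shNAT10.

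The knockdown effects on the listed partner and upstream genes were few. In SW480, BMI1, a Polycomb component, changed by -0.31 (SE 0.0700, adjusted p = 0.043, edgeR) and RAD21, a cohesin subunit, by -0.33 (SE 0.0685, adjusted p = 0.030), and the other 65 tested genes of the 6 lists did not pass. In DLD-1, 0 of the 67 passed, BMI1 at -0.16 (adjusted p = 0.82). Over all tested genes 1.68% passed in SW480 and 0.0147% in DLD-1. For the mean over both lines BMI1 passed, at -0.23 (adjusted p = 0.038). The change of CDX2 was 0.20 in SW480 (adjusted p = 0.23) and 0.12 in DLD-1 (adjusted p = 0.92). The difference of CDX2 between the lines with shNAT10 was -1.87, close to that with shControl.

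The reported hairpin targets against NAT10 were searched in the transcripts of the 38 members, since a match there would bear on the knockdown comparison. They are shown 5′ to 3′ as the sense strand of the target.
shNAT10-1: ggccaaagctgtcttgaaa
shNAT10-2: cagtgacgacctagatgaa
Both matched NAT10 over their 19 bases. The longest run shared with a HOX transcript was 11 bases for shNAT10-1 (HOXC10) and 10 bases for shNAT10-2 (HOXC13).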

How the data were processed

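The deposited estimated counts per RefSeq transcript, and the FPKM values that the authors deposited per library, were used. HISAT2 2.0.4, Bowtie2 2.2.5, RSEM 1.2.12 and hg38 are named in the submitters' processing notes. Libraries were grouped by cell line and hairpin as labelled. Counts were summed per gene, rounded, filtered with filterByExpr (minimum count 10, minimum total 15), scaled by TMM and fitted as 4 groups in edgeR 4.0.16 (R 4.3.3), with no term for replicates. The 6 contrasts were the line difference in each hairpin arm, the knockdown in each line, its mean over lines and its difference between lines. P-values were Benjamini-Hochberg adjusted over 13619 genes, intervals are 95%, and a group at 0 was set to 3 counts for bounds. SE and intervals were calculated back from the fitted change and the quasi-likelihood F statistic, an approximation that is poor for counts near 0.

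FPKM for SW480 shNAT10 replicate 2 stops early, leaving 14655 transcripts (18.6%) and 13 members without a full value. Alternatives used limma 3.58.1 on log2 FPKM, DESeq2 1.42.0, other scalings and filters, a replicate term, and each library left out. The model was tested on data simulated with equal means in all groups except for the changed genes, unlike the 2 lines here. Of changes of 1 on the log2 scale 89.9% to 90.9% were recovered, and of changes of 0.5 between 69.1% and 80%. False calls made up 4.49% to 6.59% of all calls. Of the chosen genes, 1 member and 2 listed genes are not reported here. The other members were named, with listed partner genes by lowest p (3 a list), NAT10, CDX1, CDX2 and PRAC1. Members and lists were chosen with earlier results of these data known. Figures used matplotlib 3.10.9.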

Additional observations from a re-analysis of the deposited data

Results flagged for a closer look

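The NAT10 knockdown itself was the result set apart. Its log2 change was -2.25 in SW480 and -1.09 in DLD-1, and the difference between the lines, tested as an interaction in edgeR, was -1.16 (adjusted p = 0.0015). NAT10 was lower with shNAT10 in 2 of 2 libraries of each line. Without DLD-1 shNAT10 replicate 1 the difference was -1.10 and no longer passed (adjusted p = 0.073), and on log2 FPKM with a pseudocount of 1 or 0.1 it was -1.09 and -1.18 (adjusted p = 0.072 and 0.085). The HOX comparison between lines therefore sets a deeper knockdown in SW480 beside a shallower one in DLD-1. Whether the depth of knockdown had a part in the HOX values was not tested.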

How the results depend on the processing

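Of 224 counts of called HOX genes under the alternatives, 211 stayed within 1.5 times the reported count and 13 did not. On log2 FPKM (pseudocount 1 or 0.1), where only 20 members have values in every library and pass the filter, 8 members were lower in SW480 with shControl and 7 with shNAT10, in place of 16 and 15. For the knockdown in SW480, the fit on log2(FPKM + 0.1) called 1 member (HOXA5) lower, and leaving out a library gave 0 to 1. The limits of the study called 2 lower in SW480, 1 higher in DLD-1, 1 higher and 2 lower for the mean, and 3 lower for the difference. With the replicate number as a block, 3 members were lower in SW480 (HOXA5, HOXA7 and HOXB3, adjusted p = 0.013, 0.014 and 0.030, edgeR) and 1 for the mean (HOXA7, adjusted p = 0.0496), against 0 and 0 without it, and calls over all genes rose from 229 to 1654 in SW480. The labels do not say what the numbers share. The correlations of same-numbered deviations ran from -0.02 to 0.34, below 0.1 for 1 of the 6 pairs of groups. Between the shControl and shNAT10 groups they were 0.30 in SW480 and 0.21 in DLD-1. The reported fit leaves the block out, and whether the numbers pair libraries was not settled. Of 1410 values of single genes, 1375 kept their direction and side of the threshold, 28 lost and 6 gained the call, and 1 reversed, the line difference of HOXB7 with shNAT10, which ran from -0.12 to 0.016 when a library was left out. The cause of these changes was not tested beyond the smaller number of members in the FPKM fits. With 2 libraries per group and under 10 counts of most HOXC and HOXD genes in DLD-1, small changes there were not detectable.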
